A study of Mus musculus with 22 samples.

Results

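Dppa2, Dppa3 and Dppa4 are 3 of the 55487 genes listed in each of 2 deposited tables, and were taken by symbol after the Ensembl identifiers had been matched to the GENCODE M21 annotation. They are described here in every group of both tables. The cells were mouse embryonic stem cells of a Dux-/- line kept in 2iLIF. They carried an inducible transgene for the red fluorescent protein mCherry, on its own or fused to full-length DUX or an altered form of it. After 24 h of recovery from plating, every group received 0.25 ug/mL doxycycline for 12 h, so the controls share the missing Dux gene and the drug. RNA was sequenced from poly(A)-selected, stranded libraries.

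The chimera table holds 14 libraries in 7 groups of 2 replicates: mCherry (the tag alone), FL (full-length DUX), C1+14, C3+14, C1C3a, C1C3b and C1C3c. The deletion table holds 8 libraries in 4 groups of 2: FL, C12345delt14, deltC12345+14 and deltC12345delt14. Both tables hold the same FL libraries, with reads that differed at 0 genes. The labels do not spell out what C1 to C5, 14 and the letters a, b and c stand for, nor how many clones a line came from. A further group, C3delt14, was not analysed here. The deletion table has no mCherry group, and the tables were scaled separately, so groups were tested only within a table.

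DPPA2 and DPPA4 are small nuclear proteins with a DNA-binding SAP domain that form a pair, keep certain promoters accessible in embryonic stem cells, and are known there as activators of the endogenous Dux gene. DPPA3, also called STELLA or PGC7, is a maternal factor of the egg and early embryo that binds the methylation cofactor UHRF1 and keeps it from directing DNMT1 to DNA. DUX itself binds DNA through a pair of homeodomains and activates the genes of early zygotic transcription. In these cells the Dux gene on which DPPA2 and DPPA4 act is missing, and the DUX protein comes from the transgene.

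All coordinates are of GRCm38. Dppa2 (ENSMUSG00000072419) is a protein-coding gene on chromosome 16, from 48303908 to 48319723 on the plus strand. Dppa4 (ENSMUSG00000058550) lies just before it on the same strand, from 48283733 to 48294237, with 9671 bases between them. Dppa3 (ENSMUSG00000046323) is on chromosome 6, from 122626410 to 122630272, also on the plus strand. Each has processed pseudogenes elsewhere in the genome that match stretches of its coding sequence. Reads from gene and copy can be told apart only where they differ. A stretch of 120 coding bases of each gene is therefore shown beside the copy that shares most of its sequence, from the GENCODE M21 transcripts of GRCm38. Each is the first stretch with at least 90% of its bases the same and its first 20 bases identical, so it was chosen for likeness. Capitals mark the bases that differ.
Dppa2: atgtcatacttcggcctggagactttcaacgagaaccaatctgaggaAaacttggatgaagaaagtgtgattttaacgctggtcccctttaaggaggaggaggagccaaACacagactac
Gm9788: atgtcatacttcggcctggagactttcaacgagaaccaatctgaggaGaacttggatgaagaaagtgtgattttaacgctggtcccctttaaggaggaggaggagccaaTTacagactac
Dppa3: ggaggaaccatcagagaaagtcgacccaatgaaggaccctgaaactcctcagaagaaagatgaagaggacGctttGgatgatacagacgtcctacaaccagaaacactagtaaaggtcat
Dppa3-ps: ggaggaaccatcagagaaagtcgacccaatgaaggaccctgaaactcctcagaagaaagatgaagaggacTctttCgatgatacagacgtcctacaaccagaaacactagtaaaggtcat
Dppa4: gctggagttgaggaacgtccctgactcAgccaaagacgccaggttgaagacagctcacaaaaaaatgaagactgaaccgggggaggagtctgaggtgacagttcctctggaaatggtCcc
Gm14058: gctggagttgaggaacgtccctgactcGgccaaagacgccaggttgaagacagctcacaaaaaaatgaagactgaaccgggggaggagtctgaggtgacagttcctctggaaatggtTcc

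The Dppa2 stretch is bases 1 to 120 of its coding sequence and differs from Gm9788 (chromosome 19, 41459813 to 41460718) at 3 bases. The Dppa3 stretch is bases 3 to 122 and differs from Dppa3-ps (chromosome X, 37625647 to 37626097) at 2 bases. The Dppa4 stretch is bases 360 to 479 and differs from Gm14058 (chromosome 2, 122214620 to 122215354) at 2 bases. Over the whole coding sequence, 897 of 903 bases of Dppa2 matched Gm9788. Aligned without gaps, 440 of 448 bases of Dppa3 matched Dppa3-ps. For Dppa4, also aligned without gaps, 576 of 732 bases (78.7%) matched Gm14058, out of a coding sequence of 888. An inserted or lost base lowers such a count for all bases beyond it. The 78.7% is therefore not a measure of how far this copy has diverged. Of exon sequence sampled in words of 50 bases, 29.6% of Dppa2, 17.7% of Dppa3 and 37.1% of Dppa4 also occurred in another transcript. The sequence-sharing genes held between 4.51% and 7.72% of the reads of Dppa2 and its copies together in a library. For Dppa3 that share was 0% to 6.19%, and for Dppa4 3.91% to 7.37%. How the authors' counting split reads that match both is not given in the sources used here, so how far such reads move the level of each member is not known.

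Library totals ran from 21059953 to 40448890 reads over the 20 libraries. Values are normalised reads, that is reads divided by 1 size factor per library. A gene was called when limma, fitted to log2(value + 1) over all groups of a table, gave an adjusted p (Benjamini-Hochberg) below 0.05 together with a log2 difference of 1 or more in either direction. All 3 members passed the filter on low values (at least 10 in at least 2 libraries) in both tables. Nothing in the labels says that replicates were separate cultures, so these p-values measure only the spread between these samples. The libraries were of 2 kinds in the share of reads in genes with many near-identical copies: 1.87% to 2.86% in 14 libraries, called kind A here, and 0.453% to 0.591% in 6, called kind B. Both C3+14 and both mCherry libraries were of kind B. So were replicate 2 of deltC12345+14 and replicate 1 of deltC12345delt14. Markers of embryonic stem cells summed to between 37800 and 120966 normalised reads in a library, with none of the 12 at 0, while the 7 fibroblast feeder markers summed to between 173 and 765.

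Dppa2 was strongly induced by 2 derivatives and followed a graded order over the rest. It rose against mCherry in C3+14 (5.50-fold), in C1C3a (5.81-fold) and in C1C3b (2.21-fold). In full-length DUX it stood between C1C3b and C1C3c, and in C1+14 it was lower than with the tag alone. The mCherry libraries held 2768 and 2756 normalised reads of Dppa2. The C3+14 libraries held 15362 and 15050, and the C1C3a libraries 15490 and 16638. C1C3b gave 6744 and 5551, and FL gave 6571 and 4109. Both C3+14 and both C1C3a libraries thus lay far above every other library, while the C1C3b and FL values overlapped. C1C3c gave 3632 and 3353 and C1+14 gave 1706 and 1554. The C1C3c libraries lay above mCherry and the C1+14 libraries below it, without overlap in either case.

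**Figure D1:**
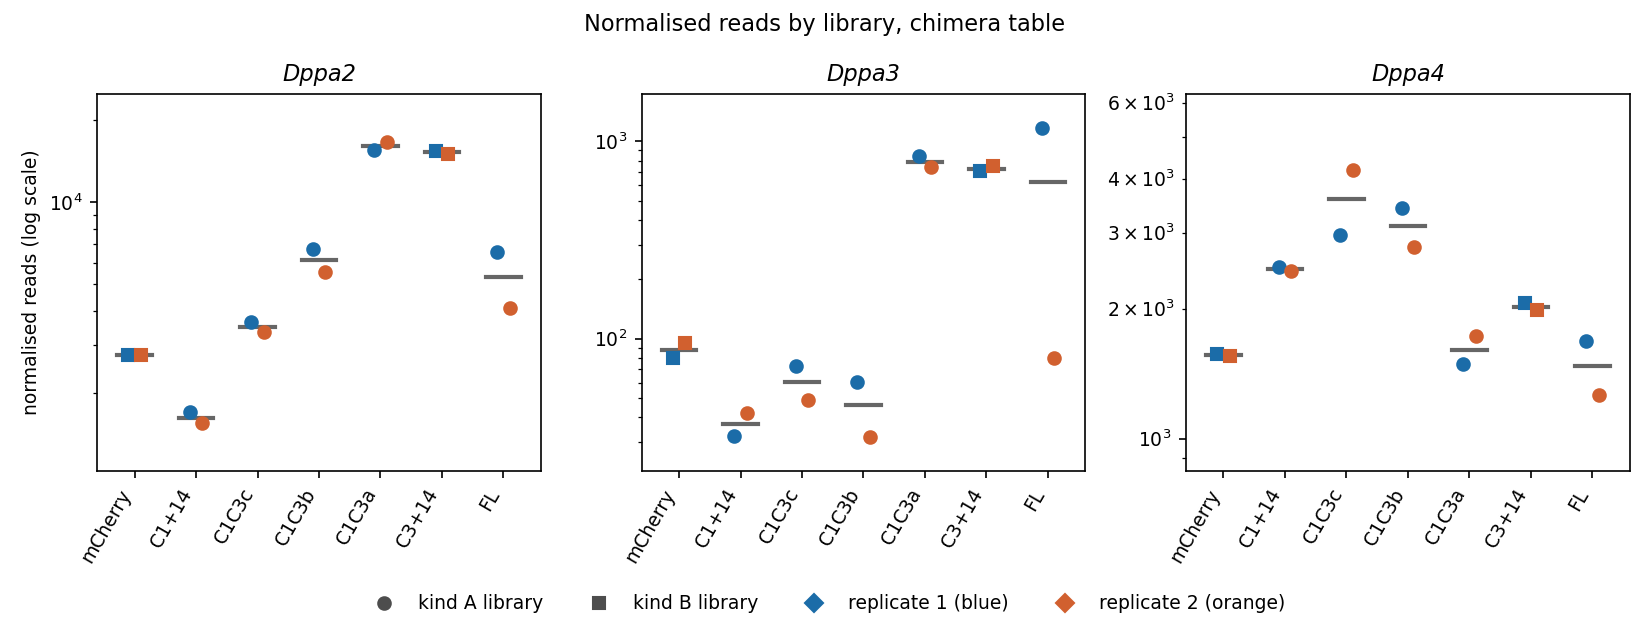
Normalised reads of Dppa2, Dppa3 and Dppa4 (log axes, 1 panel a gene) in the 14 libraries of the chimera table, by construct. Points are libraries (blue replicate 1, orange replicate 2, circles kind A, squares kind B) and grey bars are group means. C3+14 and C1C3a are highest for Dppa2, the FL replicates are far apart for Dppa3 (1167 and 79.8), and C1C3b and C1C3c are highest for Dppa4.

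On the log2 scale with limma, Dppa2 was higher than in mCherry by 2.46 ± 0.17 (SE, adjusted p = 6.52e-08) in C3+14. It was higher by 2.54 ± 0.17 (adjusted p = 3.96e-08) in C1C3a and by 1.15 ± 0.17 (adjusted p = 8.46e-05) in C1C3b. In FL the difference was 0.91 (adjusted p = 5.05e-04), which is short of the fold needed for a call, and it was 1.25 (called) without FL replicate 2. The differences of 0.34 in C1C3c (limma adjusted p = 0.132) and -0.76 in C1+14 (limma adjusted p = 0.00508) were not called. The FL value is the one whose sign depends on scaling: with all libraries set to equal total reads it was -0.12, while the median of all genes moved to -0.86. Relative to the median of all genes, Dppa2 in FL was 0.82 higher with the deposited scaling and 0.74 higher with equal totals. The C3+14 and mCherry libraries are all of kind B, so that contrast lies within 1 kind. The other contrasts with mCherry cross the kinds, and the part of that in them was not tested.

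Against full-length DUX, Dppa2 was 2.93-fold higher in C3+14 (limma adjusted p = 1.85e-05) and 3.09-fold higher in C1C3a (limma adjusted p = 3.23e-05). The genes called in those contrasts made up 26.3% and 15.6% of all tested, and Dppa2 was the only member among them. The C3+14 libraries are of kind B and those of FL and C1C3a of kind A. Contrasts of C3+14 with FL or with C1C3a thus cross the kinds, and the part of that in them was not tested. All libraries of C1C3a, C1C3b, C1C3c and C1+14 are of kind A, and the group means of Dppa2 fell in that order. C1C3a exceeded C1C3b by 1.39 on the log2 scale (limma adjusted p = 2.40e-05). C1C3b exceeded C1C3c by 0.81 (limma adjusted p = 0.00550), short of the fold for a call. Against C1+14, Dppa2 was higher by 3.30 in C1C3a, by 1.91 in C1C3b and by 1.10 in C1C3c. Limma called these 3 differences from C1+14 (adjusted p = 3.64e-09, 2.86e-06 and 0.00157). In those contrasts 40.8%, 28.9% and 7.83% of all genes were called. The call for C1C3c was lost when only those 2 groups were fitted (1.10, adjusted p = 0.127). In order of group means, the neighbours C1C3a and C3+14 differed by 0.078 ± 0.17 (SE, limma adjusted p = 0.785). C1C3b and FL overlapped and differed by 0.24 (limma adjusted p = 0.253), although equal total reads gave 1.17 (called) beside a median of all genes of 0.80. C1C3c and mCherry differed by 0.34 without overlap and were not called. The limma adjusted p of 0.132 for that pair became 0.0236 with both FL libraries left out of the fit and 0.00528 with equal total reads, where the difference of 0.53 was still short of the fold.

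**Figure D2:**
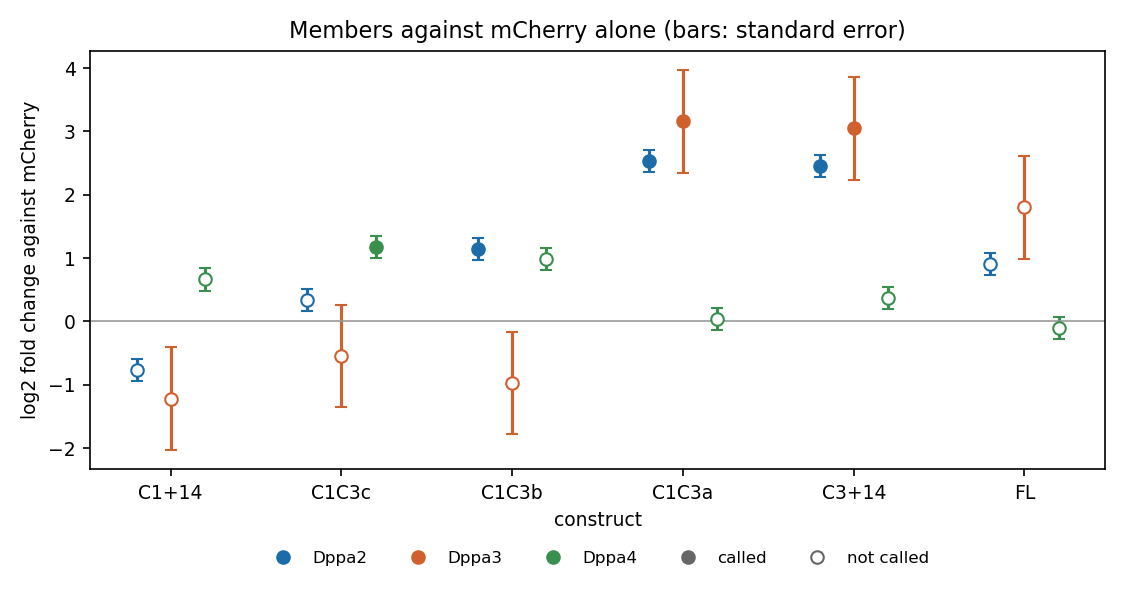
Log2 fold change against mCherry of Dppa2 (blue), Dppa3 (orange) and Dppa4 (green) for the 6 DUX constructs, from limma. Points are estimates, bars the standard error, and filled points are called. Filled points are Dppa2 in C1C3b, C1C3a and C3+14, Dppa3 in C1C3a and C3+14, and Dppa4 in C1C3c.

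Dppa3 was high in the same derivatives as Dppa2 at its highest, C3+14 and C1C3a, and in 1 of the 2 FL libraries. It was at or below the mCherry level everywhere else. The mCherry libraries held 79.8 and 95.2 normalised reads. C3+14 gave 707 and 752 and C1C3a gave 839 and 742. FL gave 1167 in replicate 1 and 79.8 in replicate 2. The C3+14 and C1C3a libraries were all far above mCherry, whereas FL held both the highest value of the table and a value equal to that of mCherry. C1C3b gave 60.5 and 31.9, C1C3c gave 72.4 and 48.7, and C1+14 gave 32.2 and 42.2. These 6 libraries were all below both mCherry libraries.

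The limma difference of Dppa3 from mCherry was 3.05 ± 0.81 (SE, adjusted p = 0.00510) in C3+14 and 3.16 ± 0.81 (adjusted p = 0.00411) in C1C3a, about 8.28-fold and 8.96-fold. Both were called under every alternative tried for them, leaving out replicates included. In FL it was 1.80 (adjusted p = 0.0706), not called. Without FL replicate 2 it was 3.73 (adjusted p = 6.48e-06), without replicate 1 it was -0.13 (adjusted p = 0.803), and edgeR and DESeq2 on the reads gave 2.65 and 2.83 (adjusted p = 0.00633 and 0.00472), both past the call, as were 44.0% and 41.7% of all genes. The differences of -0.97 in C1C3b, -0.55 in C1C3c and -1.22 in C1+14 were not called (adjusted p = 0.320, 0.627 and 0.287). Within library kind A, Dppa3 was higher in C1C3a than in C1+14 by 4.38 (adjusted p = 4.71e-04), with differences from C1+14 of 0.25 in C1C3b and 0.67 in C1C3c, neither called. The gap between the FL libraries widens the standard error of Dppa3 in the whole table. With both FL libraries left out of the fit, the C1+14 value was called (-1.22, adjusted p = 0.00974) and C3+14 kept its 3.05 (adjusted p = 5.20e-06).

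The FL replicates differed more in Dppa3 than in nearly any other gene. FL replicate 1 held 792 reads of Dppa3 and replicate 2 held 67, a ratio of 14.6 in normalised reads. Of 12960 genes whose FL mean reached 50, only 2 had a larger excess in replicate 1. The copy Dppa3-ps, which shares sequence with Dppa3, held 14 reads and 1 read. Dppa2 and Dppa4 differed by 1.60-fold and 1.33-fold between the same libraries, at ranks 998 and 2374. Genes of the 2-cell embryo moved the same way by less: Tcstv1 was 3.86-fold higher in replicate 1, Tcstv3 3.08-fold and Zfp352 1.68-fold, whereas Gm2022 stood at 0.94-fold. A difference of over 4-fold between replicates was seen for 72 genes in FL. It was seen for 87 in C1C3c, 42 in C1+14, 29 in C1C3b, 13 in C1C3a, 3 in C3+14 and 0 in mCherry. FL was thus not the most divergent pair by this count. By the chi-square per gene between replicate reads, FL was the most divergent of these groups, at 78.9. C1+14 stood at 37.8 and C1C3c at 35.1.

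**Figure D3:**
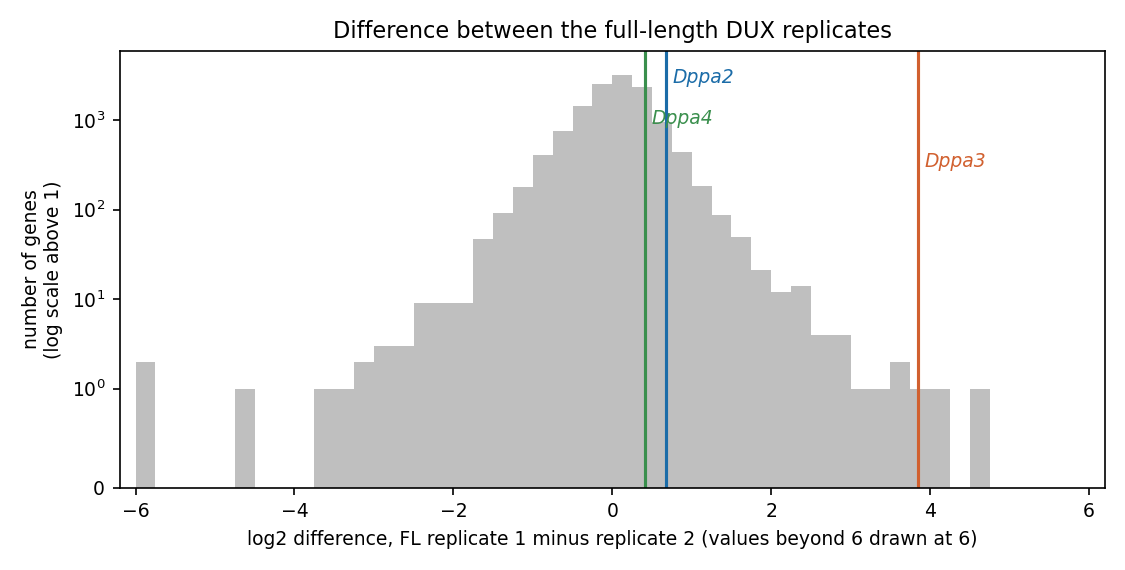
Distribution over 12960 genes of the log2 difference between FL replicate 1 and replicate 2 (grey bars, number of genes per bin of width 0.25, log scale above 1), with vertical lines at Dppa2 (0.68), Dppa3 (3.85) and Dppa4 (0.42). Dppa3 lies in the far right tail, with Dppa2 and Dppa4 much nearer to 0 on the same side.

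Dppa4 moved in another order from its partner gene. It was highest in C1C3c and C1C3b, where Dppa2 was intermediate, and close to the mCherry level in FL and C1C3a. The mCherry libraries held 1573 and 1552 normalised reads. C1C3c gave 2967 and 4198 and C1C3b gave 3421 and 2778. C1+14 gave 2498 and 2450. All 6 of these libraries were above both mCherry libraries. C3+14 gave 2057 and 1986, C1C3a gave 1490 and 1726, and FL gave 1680 and 1259. C3+14 was a little above mCherry without overlap, and the C1C3a and FL values straddled it.

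Dppa4 exceeded mCherry by 1.18 ± 0.17 (SE, limma adjusted p = 1.54e-04) in C1C3c, a called rise of 2.26-fold, and by 0.92, short of a call, without C1C3c replicate 2. In C1C3b the difference was 0.98 (limma adjusted p = 3.24e-04) and in C1+14 it was 0.66 (limma adjusted p = 0.0116), neither reaching the fold for a call. C1C3b passed it at 1.13 without its replicate 2. FL differed by -0.10 (limma adjusted p = 0.634), C3+14 by 0.37 (limma adjusted p = 0.0795) and C1C3a by 0.037 (limma adjusted p = 0.868). With equal total reads these were -1.14 (called), -0.42 and -0.88, beside medians of all genes of -0.86, -0.52 and -0.73. Against FL, Dppa4 was higher in C1C3c by 1.28 and in C1C3b by 1.08 (limma adjusted p = 3.58e-05 and 1.47e-04), which lie within library kind A. Of all genes, 44.0% and 43.0% were called in those contrasts. Dppa3 was called lower than FL in both, and in C1+14, but without FL replicate 1 its differences shrank to -0.42, -0.84 and -1.09, of which only the last was called. With equal total reads they were -1.13, -1.84 and -1.79, none called (limma adjusted p = 0.207, 0.0512 and 0.0528). In the contrast of C1+14 with FL, where 39.9% of all genes were called, Dppa2 was called lower as well, at -1.67 (limma adjusted p = 3.70e-06). With equal total reads it was -0.42 (limma adjusted p = 0.0104, not called), beside a median of all genes of 1.11.

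Counts of called members are read against the share of all genes called in the same contrast. Against mCherry, 0 of 3 members were called in FL and in C1+14, where 44.2% and 18.3% of 21584 genes were called. In each, 2 of 3 members had an unadjusted limma p under 0.05, and edgeR and DESeq2 each called 1 member in FL and 0 in C1+14. In C3+14 and C1C3a it was 2 of 3 members, against 47.3% and 46.4% of genes. In C1C3b and C1C3c it was 1 of 3, against 44.7% and 28.8%. Over all 21 pairs of groups in the chimera table Dppa2 was called in 14, Dppa3 in 11 and Dppa4 in 4, with 32.8% of all gene and pair combinations called and a median of 7 pairs a gene.

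The ratio between the partners of the DPPA2 and DPPA4 pair shifted with the construct. Taken per kilobase of exon, the ratio of the level of Dppa2 to that of Dppa4 was 1.20 and 1.21 in the mCherry libraries. It was 7.06 and 6.55 in C1C3a, 5.07 and 5.15 in C3+14, and 2.66 and 2.22 in FL. C1C3b gave 1.34 and 1.36, C1C3c gave 0.83 and 0.54, and C1+14 gave 0.46 and 0.43. A ratio within a library does not depend on the scaling, and its order runs from C1C3a down to C1+14 with no overlap between groups. That order mixes the library kinds, as C3+14 and mCherry are of kind B and the other groups of kind A. The part of the kind in the ratio was not tested. Per kilobase, the mean level in mCherry was 1129 normalised reads for Dppa2, 940.1 for Dppa4 and 98.1 for Dppa3, so Dppa3 was the least abundant member there.

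In the deletion table Dppa2 was lower in the constructs named deltC12345 than in FL and C12345delt14. FL gave 8082 and 5140 normalised reads and C12345delt14 gave 6358 and 5725. The libraries of deltC12345+14 held 1550 and 1417, and those of deltC12345delt14 held 1345 and 1243. Every library of the constructs named with C12345 was above every library of those named deltC12345, and FL and C12345delt14 overlapped. Against FL, Dppa2 differed by -2.12 ± 0.21 (SE, limma adjusted p = 1.92e-04) in deltC12345+14 and by -2.32 ± 0.21 (limma adjusted p = 1.13e-04) in deltC12345delt14, which is 4.35-fold and 4.98-fold lower. With equal total reads these were -0.90 (not called) and -1.14 (called), beside medians of all genes of 1.11 and 1.05. Its difference of -0.10 in C12345delt14 was not called (limma adjusted p = 0.812) and has a 95% interval of -0.57 to 0.38. That sign turned with equal total reads (0.43) and with quantile normalisation (0.16).

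**Figure D4:**
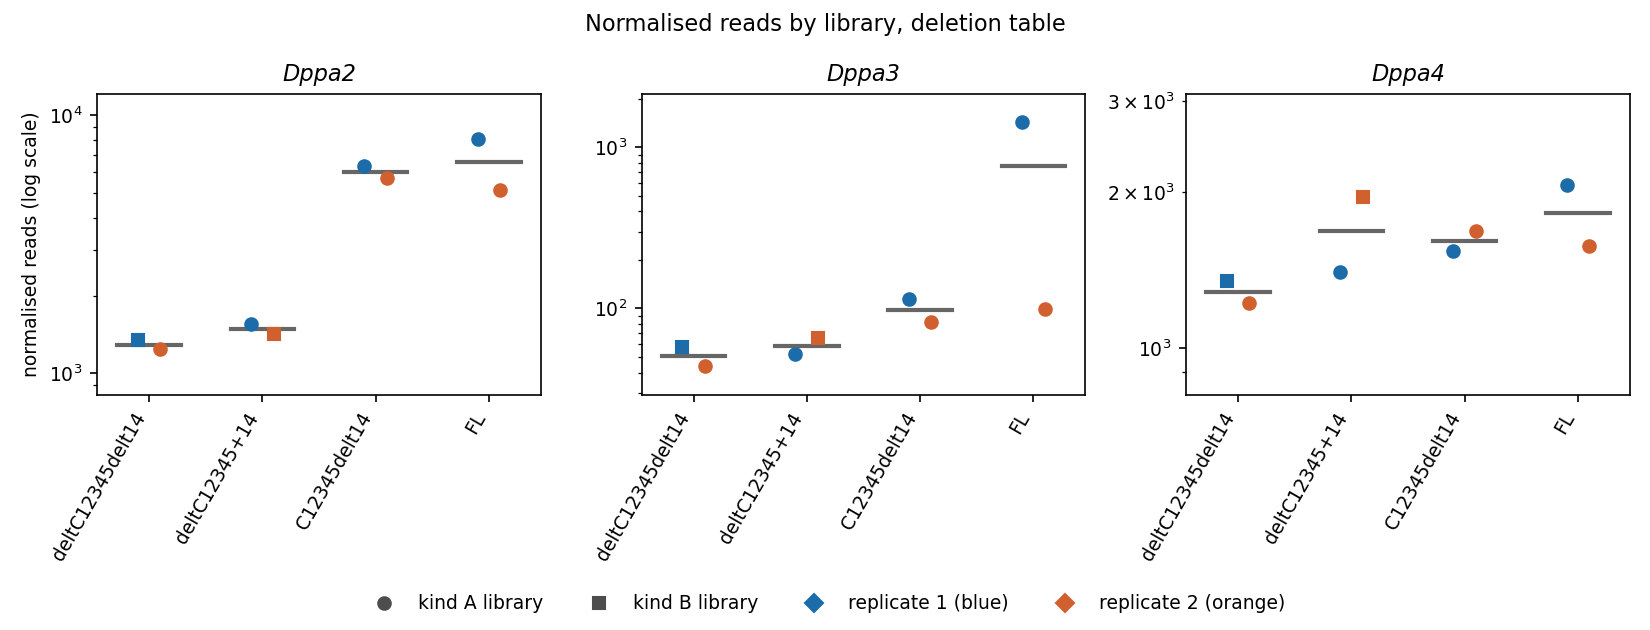
Normalised reads of Dppa2, Dppa3 and Dppa4 (log axes) in 8 libraries, by deletion construct, with library kinds and replicates marked as before and grey bars at the group means. For Dppa2 both deltC12345 constructs are low (1243 to 1550), for Dppa3 a single FL library stands alone (1435), and the Dppa4 values lie between 1221 and 2066.

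Within the pair of deltC12345 constructs, Dppa2 differed by 0.20 (limma adjusted p = 1.00), Dppa3 by 0.21 and Dppa4 by 0.37 between deltC12345+14 and deltC12345delt14, none called. For that contrast limma called 0 of all genes (0.0%), edgeR 0 (0.0%) and DESeq2 3 (0.0151%), with 543 genes at an unadjusted limma p under 0.05 and no member among them. The 2 groups each hold a library of either kind: Dppa2 stood at 1550 (kind A) and 1417 (kind B) in the first and at 1345 (kind B) and 1243 (kind A) in the second, so neither kind was higher in both. For Dppa3 the kind B library was the higher one in both groups (65.4 against 51.9, and 57.5 against 43.9). The same held for Dppa4 (1957 against 1401, and 1350 against 1221), and the part of the library kind in these values was not tested. Between C12345delt14 and deltC12345delt14, Dppa2 was higher by 2.22 (limma adjusted p = 2.02e-04), and was the only member called, with 22.0% of all genes called. Whether losing the part named 14 went with a different change beside C12345 and beside deltC12345 was tested as a difference of differences. It was -0.10 ± 0.29 (SE) for Dppa2, 1.74 ± 1.44 for Dppa3 and -0.20 ± 0.29 for Dppa4 (limma adjusted p = 0.895, 0.594 and 0.769). The test was added after the data were seen, and 0 of 19833 genes had a limma adjusted p under 0.05 in it.

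Dppa3 in the deletion table again rests on FL replicate 1. FL gave 1435 and 99.8 normalised reads, C12345delt14 gave 114.3 and 82.8, deltC12345+14 gave 51.9 and 65.4 and deltC12345delt14 gave 57.5 and 43.9. Apart from that single library, the values ran from 43.9 to 114.3, and FL replicate 2 lay inside the range of C12345delt14. Against FL the differences were -1.95 in C12345delt14 (limma adjusted p = 0.272), -2.68 in deltC12345+14 (limma adjusted p = 0.0555) and -2.89 in deltC12345delt14 (limma adjusted p = 0.0428, called). Without FL replicate 1 they were -0.036, -0.77 and -0.98, and none was called.

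With the deposited scaling, Dppa4 differed little between these constructs. FL gave 2066 and 1575, C12345delt14 gave 1536 and 1682, deltC12345+14 gave 1401 and 1957 and deltC12345delt14 gave 1350 and 1221. Only deltC12345delt14 lay wholly below FL, with a difference of -0.49 (limma adjusted p = 0.0724, not called). With equal total reads, Dppa4 differed from FL by 0.36 in C12345delt14, 1.09 (called) in deltC12345+14 and 0.68 in deltC12345delt14. The medians of all genes were then 0.47, 1.11 and 1.05. In the main test against FL, 0 of 3 members were called in C12345delt14, 1 of 3 in deltC12345+14 and 2 of 3 in deltC12345delt14. The shares of all 19833 genes called there were 0.958%, 38.4% and 39.1%. In C12345delt14 no member had an unadjusted limma p under 0.05, and edgeR and DESeq2 called 0 of 3. The per-kilobase ratio of Dppa2 to Dppa4 was 2.81 and 2.31 in C12345delt14, 0.75 and 0.49 in deltC12345+14, and 0.68 and 0.69 in deltC12345delt14. Replicate 1 of C12345delt14 lay above both FL libraries (2.66 and 2.22), its replicate 2 lay between them, and the others lay below them. Markers of several cell types also differed between FL and the deltC12345 constructs, and most of those of embryonic stem cells were higher where Dppa2 was lower. The 12 embryonic stem cell markers summed to 107244 to 120966 normalised reads in the deltC12345 constructs and to 50130 to 66147 in FL, with none at 0. Of them, 9 were called higher than FL in each deltC12345 construct, and 0 lower in deltC12345+14 and 1 in deltC12345delt14. In C12345delt14, where Dppa2 overlapped FL, the same markers summed to 66427 to 90162, also above FL, with 0 of 12 called. The 7 trophectoderm markers summed to 2266 to 3339 against 944 to 1214 in FL, where Hand1 was at 0, and of 4 tested 2 were called higher and 1 lower in each. The 7 fibroblast feeder markers summed to 529 to 765 against 219 to 232 in FL, with 1 of 4 tested called higher in each and Postn at 0 in the deltC12345 constructs. The 6 primitive endoderm markers summed to 141 to 287 against 179 to 205. Of 5 tested, 0 were called in deltC12345+14, and 1 was called higher and 0 lower in deltC12345delt14. The part of these marker differences in the Dppa2 difference was not tested.

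Genes next to the members gave mixed values. Morc1, a germline silencing factor that is the nearest other protein-coding gene tested within 250 kb of Dppa2 and Dppa4, was not called against mCherry in any construct (values from -0.66 to 0.14). Around Dppa3, 13 of 23 neighbours were tested. Nanog, a core pluripotency factor, was lower than in mCherry in FL (-1.50), C3+14 (-1.21), C1C3b (-3.77) and C1C3c (-1.36), all called. Gdf3, a TGF-beta family ligand, was not called in any construct (-0.86 to -0.19). Rimklb, which codes for an enzyme that joins glutamate to N-acetylaspartate, was called higher in FL (2.14), C3+14 (2.98) and C1C3a (3.91), and stood at -0.35 in both C1C3b and C1C3c. All these contrasts share the mCherry libraries.

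**Figure D5:**
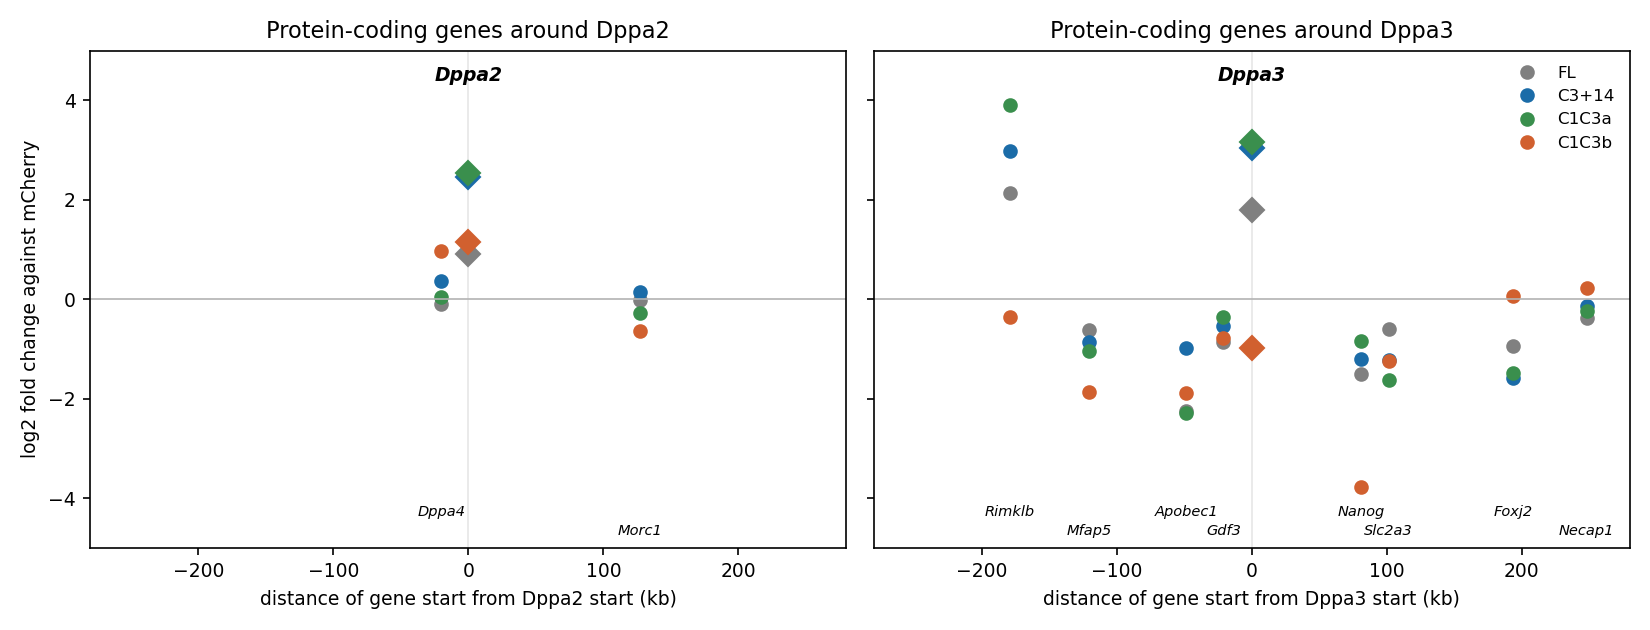
Log2 fold change against mCherry (y) of protein-coding genes within 250 kb by distance of their start from that of Dppa2 (left) or Dppa3 (right) in kb (x), for FL (grey), C3+14 (blue), C1C3a (green) and C1C3b (orange). Diamonds at 0 are the named member and circles its neighbours; only Rimklb among the circles lies above 2, and Dppa4 beside Dppa2 stays below 1.

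Among 19 genes reported to act on Dux in stem cells, Nelfa had the largest called rise in FL, C3+14 and C1C3a. Nelfa, a subunit of the negative elongation factor that is reported to promote the 2-cell state with DUX, had a mean of 1339 normalised reads in mCherry. It was 20541 ± 4633 (SD, n = 2) in FL, 32657 ± 894 in C3+14 and 54125 ± 11595 in C1C3a. Limma called those (3.92, 4.61 and 5.32), while C1C3b, C1C3c and C1+14 stood at -0.21, -0.36 and -0.062. In the deletion table Nelfa stood at -4.10 against FL in deltC12345+14, at -3.95 in deltC12345delt14 and at -1.15 in C12345delt14, all called. In all genes tested, higher and lower calls made up 24.5% and 19.6% in FL, 29.6% and 17.7% in C3+14 and 27.4% and 19.0% in C1C3a. They made up 27.6% and 17.1% in C1C3b, 18.3% and 10.5% in C1C3c and 12.4% and 5.95% in C1+14. Of this list of 19, 3 were called higher and 6 lower in FL, 2 and 4 in C3+14, 1 and 4 in C1C3a, 0 and 4 in C1C3b, 0 and 2 in C1C3c and 0 and 3 in C1+14. Its median was -0.016 in FL beside 0.088 over all genes. Trim28, a corepressor of endogenous retroviruses, stood at 1.09 in FL (called), and Ncl, which with LINE1 RNA is reported to repress Dux, at -1.37 in C1+14 (called). Smarca5, a nucleosome-sliding ATPase, stood at 1.01 in C3+14 (called). Lin28a, an RNA-binding protein, named here after its values were seen, was called lower in all 6 constructs (-5.28 to -2.12).

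The 16 genes of SUMO conjugation, the modification reported to restrain DPPA2, were mostly not called. Against mCherry, 1 was called higher and 3 lower in FL, 0 and 3 in C3+14, 1 and 3 in C1C3a, 0 and 5 in C1C3b, 0 and 2 in C1C3c and 0 and 1 in C1+14. Lower calls made up 5.95% (C1+14) to 19.6% (FL) of all genes, and calls in either direction 18.3% to 47.3%. The list's median ran from -0.75 in C1C3b to -0.26 in FL, beside medians of all genes of 0.15 and 0.088. Uba2, a subunit of the SUMO-activating enzyme, was called lower in C1C3b (-1.05) and in none of the other 5 constructs. Sumo2 and Sae1 were not called in any of the 6. Against FL, 1 of 16 was called higher and 1 lower in each deltC12345 construct, where higher calls made up 18.4% and 18.8% of all genes. Lower calls were 3966 of 19833 genes in deltC12345+14 and 4017 (20.3%) in deltC12345delt14. None was called in C12345delt14, where 0.958% of all genes were.

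The partners and counterparts of DPPA3 in DNA methylation were called in both directions. Of 9 genes, 1 was called higher and 2 lower than mCherry in FL, 0 and 5 in C3+14, 2 and 3 in C1C3a, 0 and 3 in C1C3b, 1 and 1 in C1C3c and 2 and 0 in C1+14. The shares of all genes were 24.5% higher and 19.6% lower in FL and 29.6% and 17.7% in C3+14, and the list's medians there were -0.037 and -1.12. Uhrf1, the protein that DPPA3 binds, was higher in C1C3a (1.10, called) and stood at 0.69 in FL and 0.48 in C3+14, not called. Dnmt1, the maintenance methyltransferase, was not called in any construct (-0.34 to 0.50). Tet1, an enzyme that oxidises methylated cytosine, fell by 1.76 in FL, by 1.23 in C3+14, by 1.11 in C1C3a and by 2.30 in C1C3b. Against FL it was called higher by 1.89 in deltC12345+14 and by 1.81 in deltC12345delt14, together with 3 more of the 9 genes in each, where 18.4% and 18.8% of all genes were called higher.

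Of 16 subunits of the COMPASS and Polycomb complexes, with which DPPA2 and DPPA4 are reported to associate at bivalent promoters, 0 were called higher and 4 lower than mCherry in FL, 0 and 7 in C3+14 and 0 and 4 in C1C3a. Lower calls made up 19.6%, 17.7% and 19.0% of all genes there, and the list's medians were -0.56, -0.54 and -0.72 beside 0.088, 0.23 and 0.12 over all genes. In C1C3b it was 1 and 5, in C1C3c 0 and 1, and in C1+14 0 and 2, beside lower shares of 17.1%, 10.5% and 5.95%. Ezh2, the Polycomb methyltransferase, was the single higher call (1.14 in C1C3b). Mtf2, an accessory subunit, was lower in FL (-1.02), and Ash2l and Suz12 were not called in any construct.

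Against mCherry, genes reported to depend on DPPA2 and DPPA4 were higher where they were called. Of 4 listed, Hand1 was too low to test. Against mCherry, 3 of 3 were called higher in FL and in C3+14, 2 in C1C3a and in C1C3b, and 1 in C1C3c and in C1+14, with none lower. Higher calls made up 24.5%, 29.6%, 27.4%, 27.6%, 18.3% and 12.4% of all genes in those contrasts. Mael, a factor of the germline piRNA pathway, had a mean of 121 ± 12.4 (SD, n = 2) in mCherry, 468 ± 25.7 in FL, 620 ± 9.61 in C3+14 and 280 ± 25.4 in C1C3a. Its differences of 1.94, 2.35 and 1.20 were called. Syce1, a synaptonemal complex protein, was called in FL (1.18), C3+14 (1.56) and C1C3b (1.08). Nkx2-5, a cardiac homeobox factor, was called in all 6, with 2.35 in C1+14, from a low mean of 10.7 normalised reads in mCherry. Against FL, Mael stood at -1.09 and -1.01 in deltC12345+14 and deltC12345delt14, both called, and Syce1 and Nkx2-5 were not called.

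Genes of the 2-cell embryo give the scale of DUX action in the same libraries. All 9 listed were called higher than mCherry in FL, C3+14, C1C3a and C1C3b, 6 in C1C3c and 2 in C1+14, where 1 was lower. Zfp352, a zinc finger gene of that stage, had 0 reads in mCherry, a mean of 29462 normalised reads in C3+14 and 26194 in C1C3a. It had 6209 in FL, 41.7 in C1C3b and 0.68 in C1C3c. Dppa2 by contrast had group means of 5340 in FL and 6148 in C1C3b, values that overlapped. The other genes named for developmental pluripotency association that were tested, Dppa5a and Dppa1, were not called in any construct against mCherry. Dppa5a, an abundant RNA-binding protein gene of stem cells, stood at 0.81 in FL and 0.79 in C3+14, and Dppa1 averaged only 4 normalised reads. The summed markers of embryonic stem cells were lower in every construct (37800 to 70489) than in mCherry (98280 to 99502). Primitive endoderm markers summed to 522 to 539 in C3+14 and 499 to 553 in C1C3b, against 166 to 178 in mCherry. They summed to 146 to 164 in FL, where Sox7 was at 0, and to between 236 and 475 in the other 3 constructs. Of 6, 3 were called higher and 1 lower in C3+14 and in C1C3a, and 4 and 0 in C1C3b. In FL it was 1 and 1, and in C1C3c and C1+14 2 and 0 each. Higher and lower calls made up 29.6% and 17.7% of all genes in C3+14, 27.4% and 19.0% in C1C3a and 27.6% and 17.1% in C1C3b. In FL they made up 24.5% and 19.6%, in C1C3c 18.3% and 10.5%, and in C1+14 12.4% and 5.95%. Trophectoderm markers summed to between 528 and 1072 in the constructs and to 2036 to 2134 in mCherry, but their calls went both ways. Of 6 tested, 3 were called higher and 2 lower in C3+14, 2 and 3 in C1C3b and 0 and 2 in FL. In each of C1C3a, C1C3c and C1+14, 1 was called higher and 2 lower, beside the same shares of all genes. Of 7 fibroblast feeder markers, 4 were called higher and 2 lower in C3+14 and in C1C3b, with sums of 290 to 332 and 296. In mCherry they summed to 173 to 190, with Postn at 0. In C1C3a and in C1C3c 3 were called higher and 1 lower, with sums of 273 to 353 (Postn at 0) and 204. In FL and in C1+14 1 was called higher and 1 lower, with sums of 175 to 189 and 225 to 417. The part of these markers in the member values was not tested. In bulk RNA, fewer cells with a transcript and less transcript per cell cannot be told apart.

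Across the 14 libraries of the chimera table, the genes whose log2 values were most like those of Dppa2 were its copy Gm9788 (Pearson r = 0.992), Zfp605 (0.978), C130013H08Rik (0.978), Lgals9 (0.966) and Prr14 (0.965). Gm9788 shares sequence with Dppa2, as Dppa3-ps does with Dppa3, and the libraries fall into groups, so these are descriptions. For Dppa3 they were its copy Dppa3-ps (0.964), Gm26150, Igha, Gm25775 and Gm8266, of which none exceeded 53.4 normalised reads in any library. For Dppa4 they were Ppp6r3 (0.962), Tbck (0.961), Nhsl1 (0.961), Armc10 (0.961) and Mrpl45 (0.956). Over the same libraries, r was 0.82 between Dppa2 and Dppa3, -0.24 between Dppa2 and Dppa4 and -0.51 between Dppa3 and Dppa4.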

How the data were processed

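The authors deposited a signal: normalised counts, per the file headers, in which each library's reads had been divided by a constant of its own. All values (100%) were whole multiples of 1 step per column, within a tolerance of 0.01 reads, so whole reads were recovered. The submitters' processing notes name mm10, Trim Galore 0.5.0, FastQC and DESeq2. The aligner, counting program and annotation are not given in the sources used here. Symbols and coordinates are from GENCODE M21 (GRCm38), which matched 55227 of 55487 identifiers (99.5%).

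Main test: limma 3.58.1 (R 4.3.3; lmFit, eBayes with trend) on log2(value + 1), genes with at least 10 in at least 2 libraries (21584 in the chimera table, 19833 in the deletion table), Benjamini-Hochberg over all of them. The log2(value + 1) scale understates changes of low genes. Alternatives: pseudocounts of 0.1 and 8, no filter, equal totals, quantile normalisation, edgeR 4.0.16 and DESeq2 1.42.0 on recovered reads, only the 2 groups compared, a replicate block, and each replicate left out. The fit was tested on simulated data. Replicates differed by a chi-square of 3.31 to 78.9 per gene, so no library was duplicated. With 2 against 2, an exact permutation test cannot go below p = 0.333.

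Named genes are the members, tested genes within 250 kb, up to 4 genes a list with the highest mean, any single list gene called, and the 5 genes most correlated with each member. The members and lists were chosen with earlier results of these data known. Promoter sequences of the members were not used here.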

Additional observations from a re-analysis of the deposited data

How the results depend on the processing

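Equal total reads shifted the median of all genes by -0.95 (FL), -0.74 (C3+14) and -0.86 (C1C3a) against mCherry and by 0.51, 1.19 and 1.15 in C12345delt14, deltC12345+14 and deltC12345delt14 against FL. Against mCherry it gave Dppa2 in FL -0.12 and Dppa4 -1.14 in FL, -0.42 in C3+14 and -0.88 in C1C3a. Against FL it gave Dppa2 in C1C3c 0.65, C12345delt14 0.43 and deltC12345+14 -0.90. For Dppa4 against FL it gave 0.36, 1.09 (called) and 0.68 in C12345delt14, deltC12345+14 and deltC12345delt14, and for Dppa3 -1.73 in deltC12345delt14. It also gave Dppa2 in C1+14 against FL -0.42, not called. It gave Dppa4 in C12345delt14 against deltC12345delt14 -0.32 and Dppa3 in C1C3b against C1+14 -0.058. Quantile normalisation gave Dppa4 -0.15 in C1C3a and 1.07 in C1C3b against mCherry, Dppa2 0.072 in C1C3c and 0.16 in C12345delt14 against FL, Dppa4 0.15 in deltC12345+14 and Dppa3 -2.58 in deltC12345delt14 against FL, and Dppa3 -0.074 in C1C3b against C1+14. The cause of these changes beyond the shift of all genes was not tested.

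edgeR gave Dppa3 in FL against mCherry 2.65 and DESeq2 2.83. For Dppa3 in deltC12345+14 against FL they gave -3.57 and -3.72, and edgeR gave Dppa4 -0.10 in C1C3a against mCherry and 0.0063 in deltC12345+14 against FL. A pseudocount of 8 gave Dppa3 -2.57 in deltC12345+14 (called), and in deltC12345delt14 a pseudocount of 0.1, no filter and fitting only the 2 groups gave -2.91, -2.89 and -2.89, none called. Adding the reads of sequence-sharing genes, chosen after seeing the data, gave Dppa4 in C1C3b 1.01 (called). Leaving both FL libraries out of the fit, also chosen then, gave Dppa3 in C1+14 -1.22 (called).

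Leaving out 1 replicate gave, against mCherry, Dppa2 in FL 0.57 to 1.25, Dppa3 in FL -0.13 to 3.73, Dppa3 in C1+14 -1.41 to -1.03, and Dppa4 -0.31 to 0.10 in FL, -0.068 to 0.14 in C1C3a, 0.83 to 1.13 in C1C3b and 0.92 to 1.43 in C1C3c. Against FL it gave Dppa3 -0.68 to 3.18 in C3+14, -0.56 to 3.29 in C1C3a, -3.87 to -0.036 in C12345delt14, -4.60 to -0.77 in deltC12345+14 and -4.81 to -0.98 in deltC12345delt14. Dppa4 gave -0.067 to 0.35 in C1C3a, -0.36 to 0.029 in C12345delt14 and -0.36 to 0.12 in deltC12345+14. Dppa2 gave -0.10 to 0.57 in C1C3b and -0.42 to 0.23 in C12345delt14, and Dppa3 in C1C3b against C1+14 gave -0.20 to 0.70. The lone sample left in a group is assumed to vary like the other groups. Dppa3 was called in 12 of 21 pairs of the chimera table without FL replicate 1 and in 13 without replicate 2, and in 0 and 3 of 6 pairs of the deletion table.

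Replicate numbers did not pair the samples: deviations correlated between -0.57 and 0.14 over 27 pairs of groups, and 1 was over 0.1. With the replicate block Dppa3 in deltC12345+14 was -2.68 (limma adjusted p = 0.0462, called). With only deltC12345+14 and deltC12345delt14 fitted, 7 genes were called with no block, 0 with the block as labelled and 0 with crossed numbers, none of them a member. The search of promoters for a motif was not run.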
